A study of Mus musculus with 9 samples.

Results

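The suppressor of cytokine signalling (SOCS) family, Socs1 to Socs7 and Cish, was examined together with the kinase gene Jak2 and the transcription factor gene Stat3 in the T15 cell line. The 10 genes were taken by name from the 35288 Ensembl genes of the count table, and all 10 passed the expression filter that left 13697 genes for testing. T15 was derived from a peripheral T-cell lymphoma (PTCL) of mice whose Smarcb1 gene, a subunit of the SWI/SNF chromatin remodeler, is deleted by CD4-Cre from floxed alleles, and all 9 bulk RNA-seq libraries came from this 1 line. The groups were 3 control libraries, 3 libraries of cells that received SAHA (vorinostat, an inhibitor of histone deacetylases, 1 µM within 72 h), and 3 libraries of Smarcb1-RE cells. Smarcb1-RE cells carried a lentiviral, doxycycline-inducible Smarcb1 (plasmid pInd20), were selected with G418 and received doxycycline (0.5 µg/µl) for 72 h. The sources differ on whether the control cells were untreated, had vehicle or carried an empty plasmid, and the number of transduced clones is not stated. The paper describes no transduction, selection or doxycycline for the SAHA cells. Effects of transduction, selection and doxycycline therefore cannot be told apart from effects of Smarcb1 when Smarcb1-RE is set against control or SAHA. The paper also describes strong apoptosis of this line at the SAHA concentration of these libraries. For the re-expression it describes reduced cell growth, with no effect on viability or cell cycle. The part of dying or surviving cells in the SAHA values below was not tested. Nor was the part of reduced growth in the Smarcb1-RE values.

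Cytokine receptors without a kinase of their own carry Janus kinases (JAK) on their intracellular tails. After the ligand binds, the JAKs phosphorylate the receptor, STAT proteins dock and are phosphorylated, and STAT dimers enter the nucleus to switch on target genes, among them Cish, Socs1, Socs2 and Socs3, whose products then damp the same receptors. SOCS proteins bind phosphorylated tyrosines through an SH2 domain and recruit a ubiquitin ligase through the SOCS box, and Socs1 and Socs3 also inhibit JAKs directly through a kinase inhibitory region. In T cells, Socs1 restrains interferon-gamma and common gamma-chain signals, Socs3 restrains signals through the gp130 receptor, and Cish restrains signals of IL-2 and of the T-cell receptor.

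Smarcb1 itself had 2, 5 and 8 counts in control, 7, 13 and 3 after SAHA and 151, 147 and 142 in Smarcb1-RE (log2 fold change 4.89 against control, adjusted p = 6.19e-08). Library totals lay between 20900477 and 24941494 counts, and 3 counts, taken as the smallest detectable level, corresponded to 0.123 to 0.133 CPM (read counts scaled to a common library size, here with TMM factors), which covers counting error only. Control replicate 1 stood apart from the other control libraries (chi-square per gene of 12.5 and 14.1, against at most 4.55 in all other replicate pairs), and values without it are given where they change a member's call or move a called value by over 1.5 times. Without it, no count of a pathway list below changed by more than 1 gene. The summed CPM of 10 T cell markers was 3289 to 3427 in control, 3646 to 3686 in SAHA and 3290 to 3362 in Smarcb1-RE, with Cd2, Cd5, Cd4, Dntt and Rag2 at no more than 3 counts in every library and Cd8a abundant. Rag1 was above 3 counts in Smarcb1-RE only. The summed CPM of 6 myeloid markers was 2.07 to 2.59 in control, 5.8 to 7.45 in SAHA and 1.85 to 1.96 in Smarcb1-RE, and that of 5 B cell markers was 0.936 to 1.14, 1.24 to 1.86 and 7.25 to 7.97. Of these markers, Csf1r, Adgre1 and Cd79b had no more than 3 counts in every library. The myeloid sum in SAHA was nearly all Cd68 (1.69 ± 0.255 CPM in control and 6.75 ± 0.894 in SAHA), while Itgam went from 12, 8 and 11 counts to 0, 1 and 1 and Lyz2 from 4, 2 and 2 counts to 0 in each library. The B cell sum in Smarcb1-RE was Ms4a1 (3.51 ± 0.217 CPM) and Pax5 (3.89 ± 0.16 CPM). The summed CPM of 3 NK cell markers was 0.206 to 0.468 in control, 0.129 to 0.347 in SAHA and 1.5 to 1.83 in Smarcb1-RE, nearly all of it Eomes, with Ncr1 and Klrb1c at no more than 3 counts in every library. That of 5 stromal and epithelial markers was 147 to 156, 111 to 125 and 129 to 131, mostly Pecam1. Of the same 5, Col1a1 had 1, 5 and 0 counts in control and 17, 20 and 25 in SAHA, and Epcam had 29, 17 and 24 counts in control and 3, 0 and 2 in Smarcb1-RE. The part of these markers in the values below was not tested.

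The promoters of Cish, Socs1 and Socs3 are shown because these feedback inhibitors are the members in which matches to the STAT-type motif TTCNNNGAA or the interferon-type motif (GAAA, any 2 bases, then GAAA again) were found. RefSeq windows of 300 bases (GRCm38.p6, 250 before to 50 after the start that RefSeq gives, in the direction of transcription) were held for 6 of the 10 members, Cish, Socs1, Socs3, Socs4, Jak2 and Stat3. Both strands were searched, capitals mark the matches, and position 1 is the first base at the RefSeq start. That start lies 633 bases inside the GENCODE M21 gene for Cish and 681 bases inside it for Socs3, and is the same base in both annotations for Socs1.
Cish, chr9:107296409-107296708, plus strand: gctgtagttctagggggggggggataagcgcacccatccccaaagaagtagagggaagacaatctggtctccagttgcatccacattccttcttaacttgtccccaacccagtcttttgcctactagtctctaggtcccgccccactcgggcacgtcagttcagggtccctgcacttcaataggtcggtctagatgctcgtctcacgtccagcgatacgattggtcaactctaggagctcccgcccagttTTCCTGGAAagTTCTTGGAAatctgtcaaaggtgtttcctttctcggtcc
Socs1, chr16:10785487-10785786, minus strand: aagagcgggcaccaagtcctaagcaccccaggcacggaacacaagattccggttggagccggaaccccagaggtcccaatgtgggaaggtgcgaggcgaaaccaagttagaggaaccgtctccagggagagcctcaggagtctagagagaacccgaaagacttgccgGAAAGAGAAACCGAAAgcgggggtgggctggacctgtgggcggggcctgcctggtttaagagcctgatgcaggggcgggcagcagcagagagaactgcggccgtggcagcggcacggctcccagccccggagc
Socs3, chr11:117969317-117969616, minus strand: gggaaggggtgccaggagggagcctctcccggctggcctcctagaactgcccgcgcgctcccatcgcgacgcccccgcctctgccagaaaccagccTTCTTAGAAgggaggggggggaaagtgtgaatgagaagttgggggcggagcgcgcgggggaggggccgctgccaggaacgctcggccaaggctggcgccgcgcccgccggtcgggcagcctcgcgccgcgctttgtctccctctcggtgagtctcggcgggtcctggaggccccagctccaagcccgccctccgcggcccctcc
Cish held TTCCTGGAA at positions 1 to 9 and TTCTTGGAA at 12 to 20, Socs3 held TTCTTAGAA at -154 to -146, and Socs1 held GAAAGAGAAA at -83 to -74 overlapping GAAACCGAAA at -77 to -68. Of 32851 windows of the same length, 8.3% held TTCNNNGAA, 1.15% held its stricter form TTCCNGGAA and 3.44% held the interferon-type motif. The Socs3 window had 31 CpG dinucleotides, Socs1 18 and Cish 11, against a median of 7 over all windows, and Jak2 had the most of the 6 members, with 44. These matches are descriptions of letters in a window, and binding of a factor was not measured.

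SAHA raised 4 of the 10 genes (Socs3, Jak2, Socs5 and Stat3) and lowered 2 (Socs1 and Socs4), while Smarcb1-RE raised 4 (Cish, Socs5, Socs4 and Socs7) and lowered 3 (Socs1, Socs6 and Jak2). Each is a call of edgeR's quasi-likelihood test at an adjusted p under 0.05. Over all tested genes, 66.9% were called in SAHA (32.6% higher, 34.3% lower) and 77.8% in Smarcb1-RE (39.2% higher, 38.6% lower), so the share of members called lay close to that of genes in general. The median log2 fold change of the members was 0.26 in SAHA and -0.06 in Smarcb1-RE, against 0.00 and 0.01 over all tested genes. At a change of at least 2-fold, 1 member was called in SAHA, Socs3, where 12.2% of all genes were, and 1 in Smarcb1-RE, Socs1, where 23.6% of all genes were. The libraries of the 2 groups did not overlap for 6 members in SAHA against control and for 8 in Smarcb1-RE against control, where 68.7% and 79.5% of all tested genes did not. Both comparisons used the same 3 control libraries. In bulk RNA, fewer cells that carry a transcript and less of it per cell cannot be told apart.

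**Figure D1:**
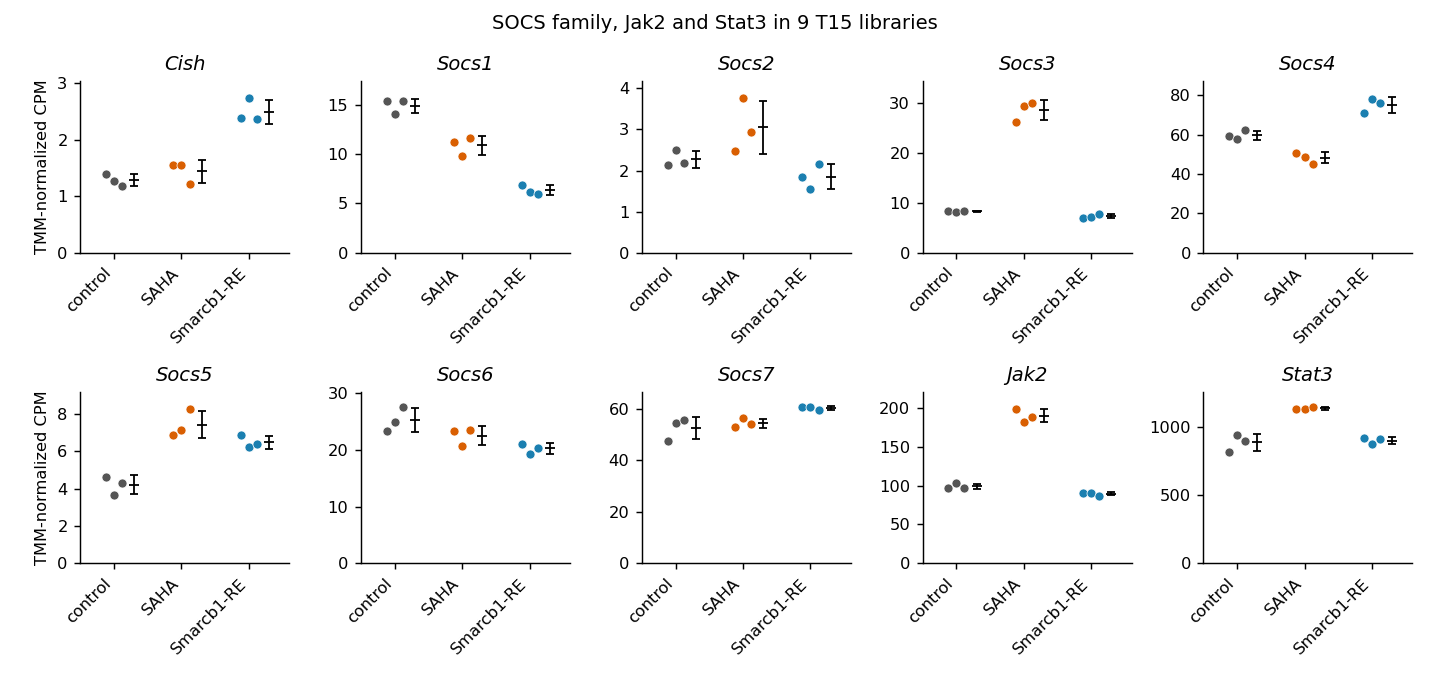
TMM-normalized CPM (linear axes from 0, a scale for each gene) of the 10 genes in the 3 control, 3 SAHA and 3 Smarcb1-RE libraries, with each point 1 library and the black bar the group mean ± SD. Socs3 and Jak2 stood apart in SAHA, Socs1 stepped down from control to SAHA to Smarcb1-RE, and Cish was higher in Smarcb1-RE.

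Among the cytokine-induced inhibitors, Socs3 had the largest change of the members. Its level was 8.33, 8.16 and 8.23 CPM in control, 26.1, 29.3 and 30.0 CPM in SAHA and 6.95, 7.17 and 7.72 CPM in Smarcb1-RE. All SAHA libraries lay far above the 6 others, whereas the Smarcb1-RE libraries lay just below control. In SAHA, Socs3 rose 3.46-fold (log2 fold change 1.79, standard error 0.07, adjusted p = 2.32e-09). The Smarcb1-RE difference was a log2 fold change of -0.18 (95% interval -0.36 to 0.00, adjusted p = 0.0693) and was not called. Smarcb1-RE and SAHA thus differed for Socs3, which was 3.91-fold higher in SAHA in the direct comparison (adjusted p = 1.96e-10).

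Socs1, the strongest JAK inhibitor of the family, fell in both treatments. Its level was 15.4, 14.1 and 15.4 CPM in control, 11.2, 9.77 and 11.6 CPM in SAHA and 6.91, 6.11 and 5.99 CPM in Smarcb1-RE. No library of any group overlapped another group. The log2 fold change was -0.46 in SAHA (standard error 0.09, adjusted p = 0.000429) and -1.24 in Smarcb1-RE (standard error 0.09, adjusted p = 6.29e-08), where control was 2.35-fold higher. Socs1 was also lower in Smarcb1-RE than in SAHA (log2 fold change -0.78, adjusted p = 7.88e-06).

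Cish, the founding member of the family and a target of STAT5, was expressed at low counts. It had 33, 30 and 29 counts in control, 36, 35 and 28 after SAHA and 56, 62 and 55 in Smarcb1-RE, or 1.29 ± 0.107, 1.44 ± 0.201 and 2.5 ± 0.21 CPM (SD, n = 3). The Smarcb1-RE libraries lay above all others, and those of SAHA and control overlapped. Cish rose 1.94-fold in Smarcb1-RE (95% interval of the log2 fold change 0.53 to 1.38, adjusted p = 0.000648, and a log2 fold change of 1.01 without control replicate 1), while the SAHA difference of 0.16 had an interval of -0.29 to 0.61 (adjusted p = 0.519). Its exons overlap the antisense genes Gm17041, not listed in the table, and Gm17040, with no more than 1 count in any library.

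Socs2, which restrains growth hormone signalling and is likewise induced by STAT5, was not called in either treatment. Its level was 2.13, 2.49 and 2.18 CPM in control, 2.47, 3.76 and 2.93 CPM in SAHA and 1.83, 1.55 and 2.16 CPM in Smarcb1-RE. Both treatments overlapped control, with wide intervals (SAHA log2 fold change 0.43, adjusted p = 0.0745, and Smarcb1-RE log2 fold change -0.29, adjusted p = 0.211). Whether the SAHA difference was called depended on single libraries and on the filter. It was 0.56 (adjusted p = 0.0326) without SAHA replicate 1 and 0.25 (adjusted p = 0.318) without SAHA replicate 2. With at least 10 counts required in every library, it was 0.46 (adjusted p = 0.0339). The treatments themselves did not overlap, and Socs2 was lower in Smarcb1-RE than in SAHA (log2 fold change -0.72, adjusted p = 0.00615).

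Socs4 and Socs5, which have long amino-terminal regions and have been linked to growth factor receptor turnover, took different courses. Socs4 had 59.1, 57.7 and 62.3 CPM in control, 50.7, 48.6 and 45.2 CPM in SAHA and 70.8, 78.4 and 76.3 CPM in Smarcb1-RE. The 3 groups did not overlap, with SAHA lowest and Smarcb1-RE highest. Socs4 fell in SAHA (log2 fold change -0.31, adjusted p = 0.000321), rose in Smarcb1-RE (0.33, adjusted p = 9.95e-05) and differed between the treatments (0.64, adjusted p = 2.99e-07). Socs5 had 4.64, 3.68 and 4.32 CPM in control, 6.89, 7.12 and 8.27 CPM in SAHA and 6.87, 6.2 and 6.38 CPM in Smarcb1-RE. All treated libraries lay above control, and Socs5 was the only member called higher in both treatments (SAHA log2 fold change 0.82, adjusted p = 5.5e-05, and Smarcb1-RE log2 fold change 0.62, adjusted p = 0.000415). Its difference between treatments was -0.20 (95% interval -0.44 to 0.05, adjusted p = 0.14).

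Socs6 and Socs7, which act mostly on receptor tyrosine kinase and insulin signals, changed little. Socs6 had 23.4, 25.0 and 27.6 CPM in control, 23.4, 20.6 and 23.5 CPM in SAHA and 21.1, 19.3 and 20.4 CPM in Smarcb1-RE, so that Smarcb1-RE lay below control and SAHA overlapped both. It fell in Smarcb1-RE (log2 fold change -0.32, adjusted p = 0.00169), and the SAHA difference of -0.17 (adjusted p = 0.0593) became -0.23 (adjusted p = 0.0153) without control replicate 1, -0.10 (adjusted p = 0.25) without control replicate 3 and -0.11 (adjusted p = 0.238) without SAHA replicate 2. The Smarcb1-RE call was lost when only library totals set the scale (-0.16, adjusted p = 0.0684). Socs7 had 47.7, 54.4 and 55.5 CPM in control, 52.9, 56.3 and 54.3 CPM in SAHA and 60.8, 60.7 and 59.6 CPM in Smarcb1-RE. The Smarcb1-RE libraries lay above all others, and Socs7 rose there against control (0.20, adjusted p = 0.0052, and 0.13, adjusted p = 0.00949 without control replicate 1). Its difference from SAHA (0.15, adjusted p = 0.0291) was lost with DESeq2 (adjusted p = 0.0663).

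Jak2, the kinase of the receptors for growth hormone, erythropoietin, IL-3 and interferon-gamma, rose in SAHA only. Its level was 96.5, 103 and 97.4 CPM in control, 199, 182 and 189 CPM in SAHA and 90.0, 91.0 and 87.1 CPM in Smarcb1-RE. The SAHA libraries lay far above all others. Jak2 rose 1.92-fold in SAHA (log2 fold change 0.94, standard error 0.04, adjusted p = 5.37e-09) and was 2.12-fold higher in SAHA than in Smarcb1-RE (adjusted p = 3.95e-10). The small fall in Smarcb1-RE (-0.15, adjusted p = 0.0102) was -0.09 (adjusted p = 0.0789) with at least 10 counts required in every library. It turned to 0.01 (adjusted p = 0.844) when only library totals set the scale. That scaling moved the median over all genes in this comparison from 0.01 to 0.17 on the log2 scale.

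Stat3, which carries the signals of IL-6, IL-10 and IL-21, had 818, 941 and 897 CPM in control, 1126, 1131 and 1146 CPM in SAHA and 914, 872 and 907 CPM in Smarcb1-RE. SAHA libraries lay above all others, and control and Smarcb1-RE overlapped. Stat3 rose 1.28-fold in SAHA (log2 fold change 0.36, adjusted p = 3.18e-05), and its Smarcb1-RE difference was 0.02 (95% interval -0.09 to 0.13, adjusted p = 0.73). With library totals as the scale the latter was 0.18 (adjusted p = 0.0061). Its exons overlap Stat5a on the opposite strand by 72 bases.

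**Figure D2:**
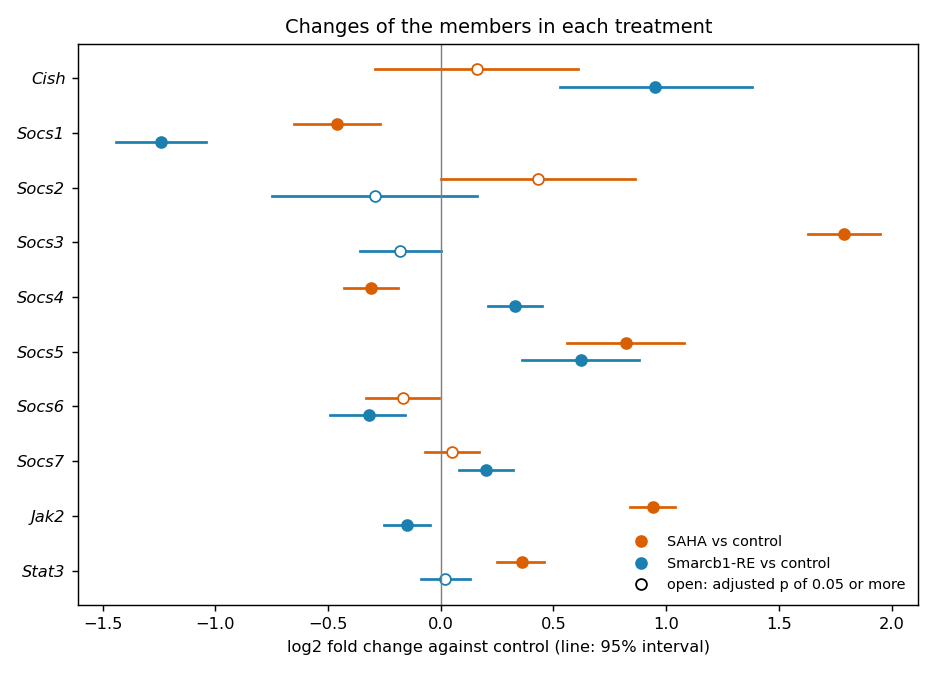
Log2 fold changes of the 10 genes against control in SAHA and Smarcb1-RE, with 95% intervals as lines and open points for an adjusted p of 0.05 or more. Socs3 and Jak2 lay far to the right in SAHA, Socs1 lay left of 0 in both treatments and Socs4 lay on opposite sides of 0.

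Compared directly, Smarcb1-RE and SAHA differed in 8 of the 10 genes, where 74.6% of all tested genes did, and their libraries did not overlap for 9, where those of 80% of all genes did not. The 3 genes higher in Smarcb1-RE (37.7% of all genes) were Cish (log2 fold change 0.80, adjusted p = 0.00244), Socs4 and Socs7, and the 5 lower (36.8% of all genes) were Socs1, Socs2, Socs3, Jak2 and Stat3 (-0.34, adjusted p = 3.77e-05). Socs3 and Jak2 differed by at least 2-fold, a size reached by 19.8% of all genes. Socs5 and Socs6 were not called.

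Levels of different genes were set side by side per kilobase of exon. In control, the order was Stat3 (93.0 CPM per kilobase), Jak2 (19.7), Socs4 (8.68), Socs7 (7.23), Socs1 (5.14), Socs3 (2.85), Socs6 (2.23), Socs5 (0.656), Socs2 (0.238) and Cish (0.201), and neighbours in this order did not overlap. In SAHA, Socs3 took the third place at 9.86 CPM per kilobase, above Socs7 (7.5) and Socs4 (7.0), which overlapped each other. In Smarcb1-RE, Socs4 took the third place at 10.9 CPM per kilobase, Socs3 (2.52) passed Socs1 (2.18), and Cish (0.39) passed Socs2 (0.194). With the length of the longest transcript instead of all exons, Socs6 moved above Socs3 in control and above Socs3 and Socs1 in Smarcb1-RE.

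**Figure D3:**
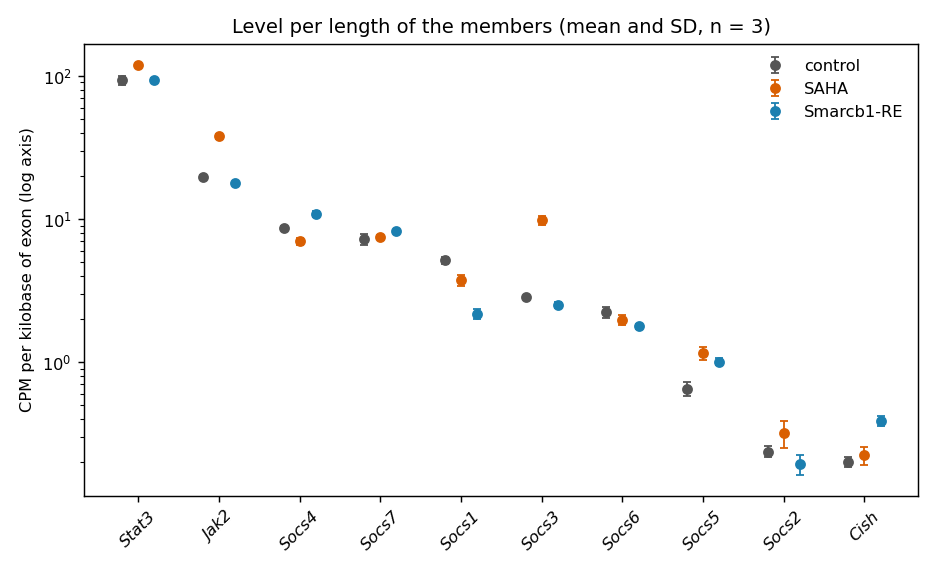
Mean level of each of the 10 genes in CPM per kilobase of exon on a log axis for control, SAHA and Smarcb1-RE, with the SD of 3 libraries. Stat3 and Jak2 had the highest levels in all 3 groups, and Socs3 took the third place in SAHA only.

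Of the summed level per kilobase of the 8 SOCS genes, Socs3 made up 10.5% ± 0.417 in control, 31.0% ± 1.75 in SAHA and 9.22% ± 0.45 in Smarcb1-RE (SD, n = 3). Socs1 made up 18.9% ± 0.923, 11.7% ± 1.05 and 7.98% ± 0.729, and Socs4 made up 31.9% ± 0.532, 22.1% ± 1.65 and 40.0% ± 1.61. The sum itself was 27.2 ± 0.986, 31.8 ± 0.566 and 27.3 ± 0.344 CPM per kilobase. The family was therefore led by Socs3 in SAHA and by Socs4 in the other groups, while its sum in Smarcb1-RE was near that of control under TMM scaling. Library totals as the scale moved the all-gene median of Smarcb1-RE against control from 0.01 to 0.17. The sum was not recomputed with them.

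Ratios within a library do not depend on the scaling between libraries. The ratio of Socs3 to Socs1 per kilobase was 0.546, 0.583 and 0.538 in control, 2.35, 3.02 and 2.6 after SAHA and 1.01, 1.18 and 1.3 in Smarcb1-RE. The balance thus turned from Socs1 to Socs3 in SAHA and, by less, in Smarcb1-RE. The size of this ratio depends on the gene length used. With the longest transcript, Socs3 had 2.85 and Socs1 2.18 CPM per kilobase in Smarcb1-RE. The ratio of Jak2 to its inhibitor Socs1 was 3.85 ± 0.343 in control, 10.1 ± 0.691 in SAHA and 8.18 ± 0.574 in Smarcb1-RE (SD, n = 3), with Jak2 the larger mover in SAHA and Socs1 in Smarcb1-RE. The ratio of Jak2 to Stat3 was 0.212 ± 0.00968, 0.317 ± 0.0156 and 0.189 ± 0.00815, and only SAHA lay above control. The Smarcb1-RE libraries (0.187, 0.198 and 0.182) lay below those of control (0.223, 0.208 and 0.206).

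The other genes of the pathway were read from general lists and are given as counts beside the shares of all genes above. Of 9 other JAK kinases and STAT factors, 6 rose and 1 fell in SAHA, and 6 rose and 2 fell in Smarcb1-RE. Stat2, a partner in type I interferon signalling, rose in both (SAHA log2 fold change 1.65, adjusted p = 4.5e-09, and Smarcb1-RE log2 fold change 0.67, adjusted p = 4.64e-06), as did the kinase Tyk2 (0.29 and 0.53). Stat5a, which drives IL-2 responses, fell in both (-0.46, adjusted p = 1.17e-06 and -1.01, adjusted p = 4.82e-10). Stat5b, named after its values were seen, had 0.10 in SAHA (adjusted p = 0.0818) and rose in Smarcb1-RE (0.17, adjusted p = 0.00441).

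Of 15 ligands that signal mainly through STAT3, 4 passed the filter, none was called in SAHA and 1 rose in Smarcb1-RE. That gene, named after its values were seen, was Il10, with 2, 1 and 5 counts in control, 2, 0 and 2 after SAHA and 85, 89 and 111 in Smarcb1-RE (log2 fold change 5.14, adjusted p = 1.1e-07). Il10 passed the filter only through Smarcb1-RE, the group in which it was called higher. The 0 ligands called in SAHA were also 0 with DESeq2 and at an unadjusted p under 0.05, but Cntf, likewise named after its values were seen, passed there without control replicate 1 (0.68, adjusted p = 0.0128, against 0.33, adjusted p = 0.246 with it). In Smarcb1-RE, Il11 passed as well without Smarcb1-RE replicate 3 (0.85, adjusted p = 0.0486) and with library totals as the scale (0.79, adjusted p = 0.0495). Of 8 tested receptor chains of such ligands, 4 rose and 2 fell in SAHA, and 5 rose and 2 fell in Smarcb1-RE. The IL-10 receptor chain Il10ra rose in both (1.00, adjusted p = 3.51e-08 and 2.70, adjusted p = 2.06e-12), as did Il6st, which encodes gp130 (0.69 and 0.74), and Lifr (0.62 and 0.99). Il11ra1 rose in Smarcb1-RE (2.28, adjusted p = 2.49e-09) and had 0.23 in SAHA (adjusted p = 0.16).

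Of 12 tested receptor chains that use JAK2, 7 rose and 2 fell in SAHA. In Smarcb1-RE, 8 rose and 1 fell, and 7 rose at least 2-fold, where 2309 of all 13697 tested genes did. The median log2 fold change of the chains was 0.51 and 1.13, against 0.00 and 0.01 for all genes. Csf2rb2, Il5ra and Epor, named after their values were seen, were among the chains that rose at least 2-fold. They had 0.223, 0.336 and 0.293 CPM in control and passed the filter through libraries of treated cells. Their rises and the median therefore lean on that filter. Csf2rb, the common beta chain of the IL-3, IL-5 and GM-CSF receptors, had 7.19, 8.88 and 8.35 CPM in control, 5.63, 4.73 and 4.31 CPM in SAHA and 59.5, 62.8 and 61.5 CPM in Smarcb1-RE. It fell in SAHA (-0.73, adjusted p = 5.38e-05) and rose in Smarcb1-RE (2.91, adjusted p = 1.37e-11). The growth hormone receptor Ghr rose in both (3.73 CPM in control, 8.73 in SAHA and 13.6 in Smarcb1-RE, adjusted p = 9.18e-07 and 6.48e-09), as did Csf2ra (log2 fold change 0.46 and 1.15) and Il3ra (0.29 and 1.10). With at least 10 counts required in every library, which Csf2rb2, Il5ra and Epor did not reach, 5 of these chains rose in Smarcb1-RE.

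Of 17 tested STAT3 target genes, 10 rose and 3 fell in SAHA, and 9 rose and 8 fell in Smarcb1-RE. Timp1, named after its values were seen, is counted as higher in both. It had 0.211 CPM in control, 0.885 in SAHA and 0.722 in Smarcb1-RE and passed the filter through libraries of treated cells. Fos, an immediate-early factor, and Hif1a, the hypoxia factor, rose more in SAHA (1.79 and 1.27) than in Smarcb1-RE (0.34 and 0.26) (Smarcb1-RE against SAHA -1.46, adjusted p = 9.75e-09 for Fos and -1.01, adjusted p = 1.06e-08 for Hif1a). The angiogenic factor Vegfa rose in Smarcb1-RE (1.82, adjusted p = 3.11e-10) and had 0.06 in SAHA (adjusted p = 0.544). Cebpb, a bZIP factor, fell in SAHA (-0.56) and rose in Smarcb1-RE (1.42). Of 8 tested STAT5 target genes, 5 rose and 2 fell in SAHA, and 3 rose and 5 fell in Smarcb1-RE, and 6 were lower and 0 higher in Smarcb1-RE than in SAHA (also 6 and 0 with DESeq2 and at an unadjusted p under 0.05, and 5 and 1 with library totals as the scale). Pim1 and Bcl2l1 are on both the STAT3 and the STAT5 list, so the counts of these lists are not separate. The kinase Pim1 rose in both treatments (1.20 and 1.16). Cyclin D2 (Ccnd2), the survival gene Bcl2l1 and Pim2 fell in Smarcb1-RE (-0.89, -0.85 and -0.84), and in SAHA they had 0.10 (adjusted p = 0.171), -0.37 (adjusted p = 8.43e-06) and -0.15 (adjusted p = 0.0333). The fall of STAT5 targets in SAHA was counted as 1 rather than 2 genes with DESeq2, with 10 counts required in every library, with separate fits and without control replicate 2 or 3 or SAHA replicate 2 or 3.

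Of 10 tested interferon-gamma targets, the signals that Socs1 restrains, 5 rose and 2 fell in SAHA, and 3 rose and 6 fell in Smarcb1-RE. The chemokine Cxcl10 had 63.1, 62.3 and 64.2 CPM in control, 147, 157 and 158 CPM in SAHA and 16.1, 15.0 and 15.8 CPM in Smarcb1-RE. It rose in SAHA (1.29, adjusted p = 5.19e-10) and fell in Smarcb1-RE (-2.01, adjusted p = 7.86e-12). Gbp2 followed the same signs (1.04, adjusted p = 1.06e-07 and -0.24, adjusted p = 0.0124). Nlrc5, the activator of MHC class I genes, rose in both (0.56 and 1.54), and Irgm1 fell in Smarcb1-RE (-1.13) with -0.01 in SAHA (adjusted p = 0.882). With library totals as the scale, 4 of these targets rose and 4 fell in Smarcb1-RE.

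Among 13 other negative regulators of JAK-STAT signalling, 6 rose and 5 fell in each treatment. Usp18, which blocks the type I interferon receptor, rose in both from low counts of 16, 10 and 15 in control (2.41 and 2.43). The phosphatase gene Ptprc, encoding CD45, rose in both (0.65 and 1.36), as did the ubiquitin ligase Cbl (0.25 and 0.92), and the phosphatase Ptpn6 fell in both (-0.80 and -0.69). With library totals as the scale, 7 rose and 3 fell in Smarcb1-RE.

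The SOCS box works through a ligase of Elongin B and C, Cul5 and their neddylation factors. Of these 8 partners, 1 rose and 4 fell in SAHA, and 1 rose and 7 fell in Smarcb1-RE (median log2 fold change -0.10 and -0.45). Elob, encoding Elongin B, had 174, 153 and 148 CPM in control, 162, 150 and 149 CPM in SAHA and 65.1, 62.2 and 65.8 CPM in Smarcb1-RE, where it fell (-1.30, adjusted p = 1.17e-09). The ubiquitin-like Nedd8 (-1.01, adjusted p = 4.65e-10) and its conjugating enzyme Ube2m (-0.71, adjusted p = 1.39e-08) fell there too. Cul5 fell in SAHA (-0.53, adjusted p = 8.79e-07), and its fall in Smarcb1-RE (-0.12, adjusted p = 0.0312) changed sign with library totals as the scale, under which 6 partners fell. Of 5 other tested SOCS-box genes, 3 rose and 2 fell in SAHA and 2 rose and 2 fell in Smarcb1-RE. Spsb1, named after its values were seen, was among those that rose in both. It had 0.084 CPM in control, 0.377 in SAHA and 3.04 in Smarcb1-RE and passed the filter through Smarcb1-RE. Its rises therefore lean on that filter. Spsb2 rose in both (1.06 and 1.00), Wsb2 and Spsb3 fell in both (-0.24 and -0.25 in SAHA, -0.50 and -0.38 in Smarcb1-RE), and Wsb1 rose in SAHA (0.56, adjusted p = 1.17e-06).

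**Figure D4:**
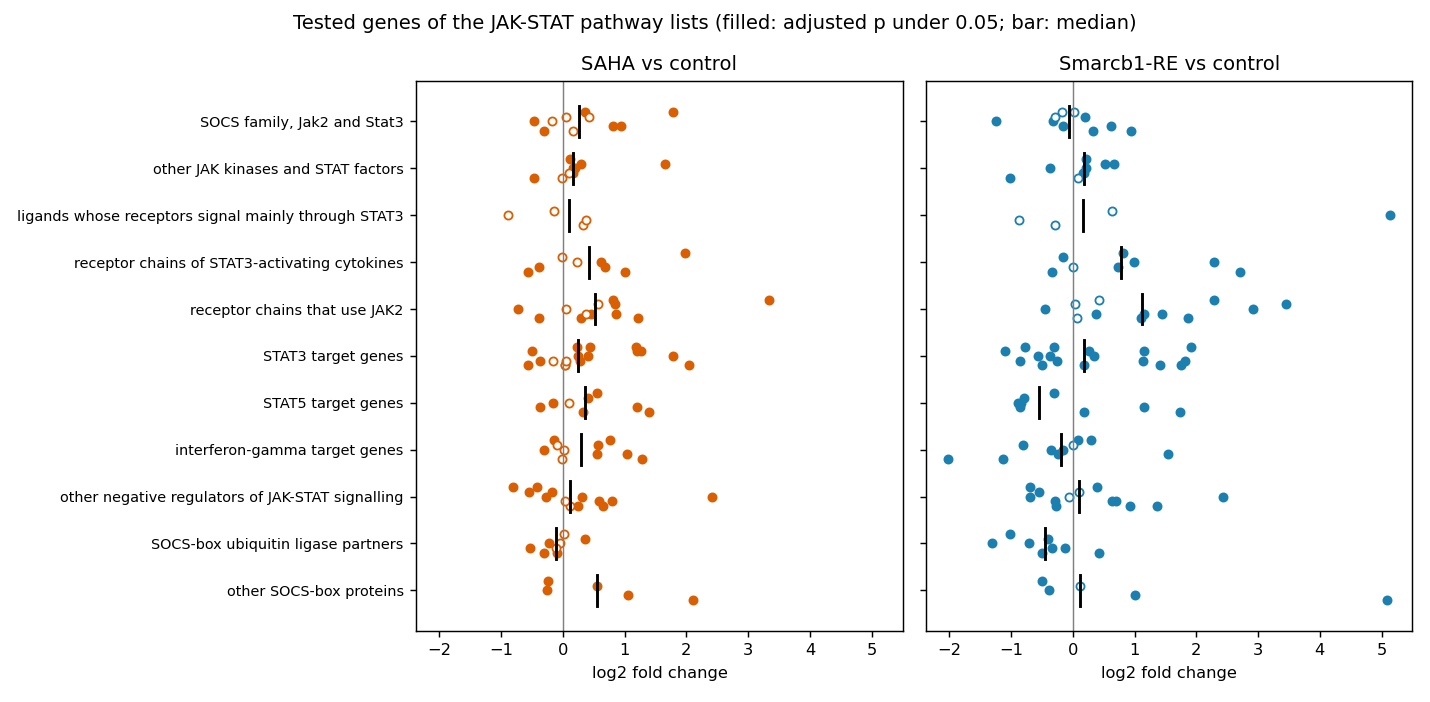
Log2 fold changes of the tested genes of each list against control, with SAHA and Smarcb1-RE in separate panels, each point 1 gene and the bar the median. The JAK2-using receptor chains had medians of 0.51 and 1.13 and the SOCS-box ligase partners -0.10 and -0.45.

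Genes whose pattern over the 9 libraries was most like that of a member were sought by Pearson's r of log2 CPM among 10703 protein-coding genes, as a description that mostly reflects the 3 group means. Nearest to Socs3 were Rab11a (0.998) and Tor1aip2 (0.998), to Jak2 Snap25 (0.995) and Oxct1 (0.995), to Socs1 Nme7 (0.992) and Lrrc14 (0.992), and to Cish Zfp943 (0.992) and Nudt13 (0.989). Stat3 was nearest to Samd8 (0.989) and Agfg1 (0.989). Socs1 had 860 genes at an r of at least 0.95, Socs3 380, Jak2 373, Cish 204 and Stat3 154, while Socs2 had 0 and was nearest to Ccdc85c (0.935) and Neu3 (0.934).

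Positions of the members are those of GENCODE M21 (GRCm38), matched through the Ensembl identifiers. Socs3 (ENSMUSG00000053113) lies on chromosome 11 from 117966079 to 117970047 on the minus strand, Stat3 (ENSMUSG00000004040) on chromosome 11 from 100885098 to 100939540 on the minus strand and Socs7 (ENSMUSG00000038485) on chromosome 11 from 97362551 to 97398542 on the plus strand. Socs1 (ENSMUSG00000038037) lies on chromosome 16 from 10782240 to 10785536 (minus), Cish (ENSMUSG00000032578) on chromosome 9 from 107296026 to 107302784 (plus), Jak2 (ENSMUSG00000024789) on chromosome 19 from 29251828 to 29313080 (plus) and Socs2 (ENSMUSG00000020027) on chromosome 10 from 95385362 to 95417180 (minus). Socs4 (ENSMUSG00000048379) lies on chromosome 14 from 47276931 to 47296102 (plus), Socs5 (ENSMUSG00000037104) on chromosome 17 from 87107679 to 87137839 (plus) and Socs6 (ENSMUSG00000056153) on chromosome 18 from 88665224 to 88927481 (minus).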

How the data were processed

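Bulk RNA-seq of the T15 line was deposited as 1 table of estimated counts per Ensembl gene for the 9 libraries, not normalized and not pooled. The libraries were directional and read from a single end. The submitters' processing notes name Salmon 0.14.1, DESeq2 1.22.2, FastQC 0.11.8, MultiQC 1.7 and GRCm38; the annotation release is not given in the sources used here. Of the deposited values above 0, 52.4% were not whole (tolerance 1e-09), and all were rounded. Names and exon lengths came from GENCODE M21, in which 99.3% of identifiers, with 99.9% of the counts, were found.

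Counts were analysed in R 4.3.3 with edgeR 4.0.16 (TMM, filterByExpr with a minimum count of 10, 1 quasi-likelihood fit to the 3 groups, Benjamini-Hochberg adjustment over 13697 genes, adjusted p under 0.05). The standard error of a log2 fold change was its size over the square root of F, and the common biological coefficient of variation was 5.24%. The study describes the replicates as biological without naming separate cultures, so p-values measure the spread between these libraries. Per-kilobase levels used all exons of a gene. The alternatives were DESeq2 1.42.0, RLE factors, library totals only, no filter, a filter of 10 counts in each library, a fit to each pair of groups alone, a replicate block, an adjusted p under 0.01, the longest transcript as gene length, and leaving out each library.

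The members and gene lists were chosen with earlier results of these data known. Named genes are the 10 members, Smarcb1, per list up to 4 genes that changed most against control among those called (average log2 CPM 1 or more), and the 2 protein-coding genes most like each of 6 members; 1 gene that this rule names is not reported here. Reads of overlapping or paralogous genes were divided by the authors' quantification, so such counts are uncertain.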

Additional observations from a re-analysis of the deposited data

How the results depend on the processing

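Of 510 recomputed log2 fold changes of the 10 members, 487 kept their direction and their side of the threshold, 13 lost the call, 9 gained it and 1 reversed. With library totals only, Jak2 in Smarcb1-RE against control turned to 0.01, 1 member in place of 3 was lower in Smarcb1-RE than in control, 2 in place of 1 differed at least 2-fold there, and 1 in place of 2 differed at least 2-fold between Smarcb1-RE and SAHA. Under that scaling, all-gene calls in Smarcb1-RE against control split into 6476 higher and 4141 lower, against 5371 and 5282 with TMM. Cish also reached 2-fold in Smarcb1-RE when at least 10 counts were required in every library or control replicate 1 was left out (2 members). With each library left out in turn, members higher in SAHA numbered 4 to 5, lower in SAHA 2 to 3, lower in Smarcb1-RE than control 3 to 4, at least 2-fold different there 1 to 2, and higher and lower in Smarcb1-RE than SAHA 2 to 3 and 5 to 6. The gained and lost calls concerned Socs2, Socs3, Socs6, Socs7, Jak2 and Stat3, and the cause was not tested. Of these, Socs3 in Smarcb1-RE passed without SAHA replicate 1 (-0.19, adjusted p = 0.0349), and Socs7 between treatments was lost in 7 of the 9 fits with a library left out. Of 960 recomputed list counts, 914 stayed within 1.5 times the main value.

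Libraries with the same replicate number did not deviate together over all tested genes (mean correlation -0.003, against 0.002 for different numbers). No pairing by number was therefore seen, and shared culture or preparation days were not tested. With the replicate block, Socs6 was also called lower in SAHA (-0.17, adjusted p = 0.0492; 3 members lower), and no other member's call changed. Cish and Socs2, with the lowest counts, had the widest intervals of the 10 genes.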
